A study of Arabidopsis thaliana with 12 samples.

Results

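AT3G54940, AT1G54870, AT1G54860 and AT5G45690 are Arabidopsis genes best known from seeds and little studied. They were followed across 4 treatments of root protoplasts, which are root cells freed of their walls. These 4 of the 13333 genes named on the array were selected on their higher intensity with dexamethasone (DEX) when protein synthesis was blocked, and because they are neither LEA nor storage protein genes. That comparison is therefore described here without a test. Each gene has 1 probe set on the array: 251838_at for AT3G54940, 256354_at for AT1G54870, 264187_at for AT1G54860 and 248915_at for AT5G45690.

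The protoplasts came from roots of ecotype Columbia and had been transformed, per the sample names, with ABI3-GR, a transcription factor that DEX lets into the nucleus. They received no agent, 10 µM DEX, 35 µM cycloheximide (CHX), an inhibitor of translation, or both, with 3 arrays for each of the 4 groups. All 12 arrays thus carry the construct, and no array of cells without it, or with an empty construct and DEX, was used here. DEX without CHX asks for all responses to nuclear ABI3, and DEX with CHX for those that need no newly made protein.

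ABI3 is a B3-domain transcription factor of seed maturation, the phase in which the embryo stores oil and protein and becomes able to survive drying. It acts with abscisic acid and with bZIP partners, and its known targets are mostly silent in vegetative tissue. Of the proteins encoded here, AT3G54940 is a papain-type cysteine protease, a class that cuts proteins in vacuoles and during seed protein turnover. AT1G54870 encodes a short-chain dehydrogenase, homologous to glucose and ribitol dehydrogenases. AT1G54860 is annotated as a membrane glycoprotein with a GPI anchor. AT5G45690 belongs to the DUF1264 family, which includes the oil body-associated proteins of seeds.

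Median array intensities lay between 115.5 and 220.8. The 4 genes were already brighter than this in untreated cells, so they were not silent without DEX. There AT3G54940 averaged 3279, AT1G54870 2310, AT1G54860 1448 and AT5G45690 841. In the same order, their log2 means over the 12 arrays were at or above those of 93.5%, 93.3%, 89.5% and 82.4% of probe sets. One array stood apart in its spiked hybridisation controls: on replicate 1 of CHX alone they averaged 230.7, where the other 11 arrays had 8733 to 15996 (geometric means). Arrays also differed in the share of probe sets at or below 16. It was 17.9% on replicate 2 of untreated cells, against 6.15% and 5.89% on replicates 1 and 3. With both agents it was 15.8%, 6.30% and 13.8%. Ubiquitin probes near the 3' end exceeded those near the 5' end, a sign of RNA breakage or short labelling, by 5.08 to 6.10 times with CHX alone and 6.51 to 8.01 times with both agents. These ranges do not overlap. For GAPDH the ratios were 2.19 to 2.30 and 2.50 to 4.33, also without overlap, while for actin they overlapped at 5.66 to 16.6 and 4.79 to 11.4. Untreated arrays had ratios of 6.26 to 7.58 for ubiquitin and 2.49 to 4.17 for GAPDH, wholly above those with CHX alone. Their actin ratios, 5.37 to 9.24, overlapped those with CHX alone. The part of RNA quality in the DEX comparison with CHX, or in that of CHX alone with untreated cells, was not tested. The labelled tissue could be checked with only 2 of 12 root markers. PYK10, a root beta-glucosidase, had intensities of 9180 to 11972 in untreated cells, and EXPA7, a root hair expansin, stood at 25.8 to 97.7. None of the 11 leaf markers or 9 storage protein and oleosin markers had a probe set named in the annotation used here. Nothing in the labels ties replicates to separate preparations. Errors and p-values therefore cover array-to-array spread, which may be technical.

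The protease gene AT3G54940 read 3018, 3916 and 2904 in untreated cells and 7378, 5313 and 5296 with DEX alone. It read 397, 183 and 331 with CHX alone and 3341, 2373 and 3933 with both agents. All 3 arrays with DEX alone lie above every other array, all 3 with CHX alone lie below, and the untreated arrays overlap those with both agents. The lowest and highest of the 12 arrays are replicate 2 of CHX alone and replicate 1 of DEX alone. In log2 intensity the group levels were 11.67 ± 0.23 (SD, n = 3) untreated, 12.53 ± 0.27 (SD, n = 3) with DEX, 8.17 ± 0.59 (SD, n = 3) with CHX and 11.62 ± 0.37 (SD, n = 3) with both.

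The dehydrogenase gene AT1G54870 read 2015, 2420 and 2496 untreated, 3997, 3480 and 4206 with DEX alone, 552, 596 and 681 with CHX alone, and 2106, 3480 and 3049 with both. Arrays with CHX alone are again the lowest. Arrays with DEX alone lie above the untreated ones, while those with both agents span the gap between them and reach into each. The reach into DEX alone is a near-tie, 3480.22 with both agents against 3480.17 with DEX alone, each on replicate 2. Its log2 levels were 11.17 ± 0.17 (SD, n = 3), 11.92 ± 0.14 (SD, n = 3), 9.25 ± 0.15 (SD, n = 3) and 11.46 ± 0.38 (SD, n = 3) in the same order. Its pooled SD within groups, 0.23, was the smallest of the 4 genes, against a median of 0.53 over all probe sets.

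AT1G54860, next to AT1G54870 in the TAIR10.1 gene table with no gene between them, read 1325, 1524 and 1495 untreated and 2606, 1819 and 1688 with DEX alone. It read 748, 298 and 377 with CHX alone and 2645, 2227 and 2331 with both. Here the arrays with both agents all exceed the untreated ones and overlap those with DEX alone. The value of 748 comes from replicate 1 of CHX alone, the array with dim hybridisation controls. Its log2 levels were 10.50 ± 0.11 (SD, n = 3), 10.97 ± 0.33 (SD, n = 3), 8.77 ± 0.69 (SD, n = 3) and 11.23 ± 0.13 (SD, n = 3).

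The DUF1264 gene AT5G45690 read 928, 776 and 817 untreated and 1030, 713 and 791 with DEX alone. It read 329, 203 and 292 with CHX alone and 1976, 2034 and 1053 with both. Untreated arrays lie within the range of those with DEX alone, and every array with both agents lies above them. The margin rests on replicate 3 of both, whose 1053 stands just above the highest array with DEX alone, at 1030. Its log2 levels were 9.71 ± 0.13 (SD, n = 3), 9.70 ± 0.27 (SD, n = 3), 8.07 ± 0.36 (SD, n = 3) and 10.66 ± 0.54 (SD, n = 3).

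**Figure D1:**
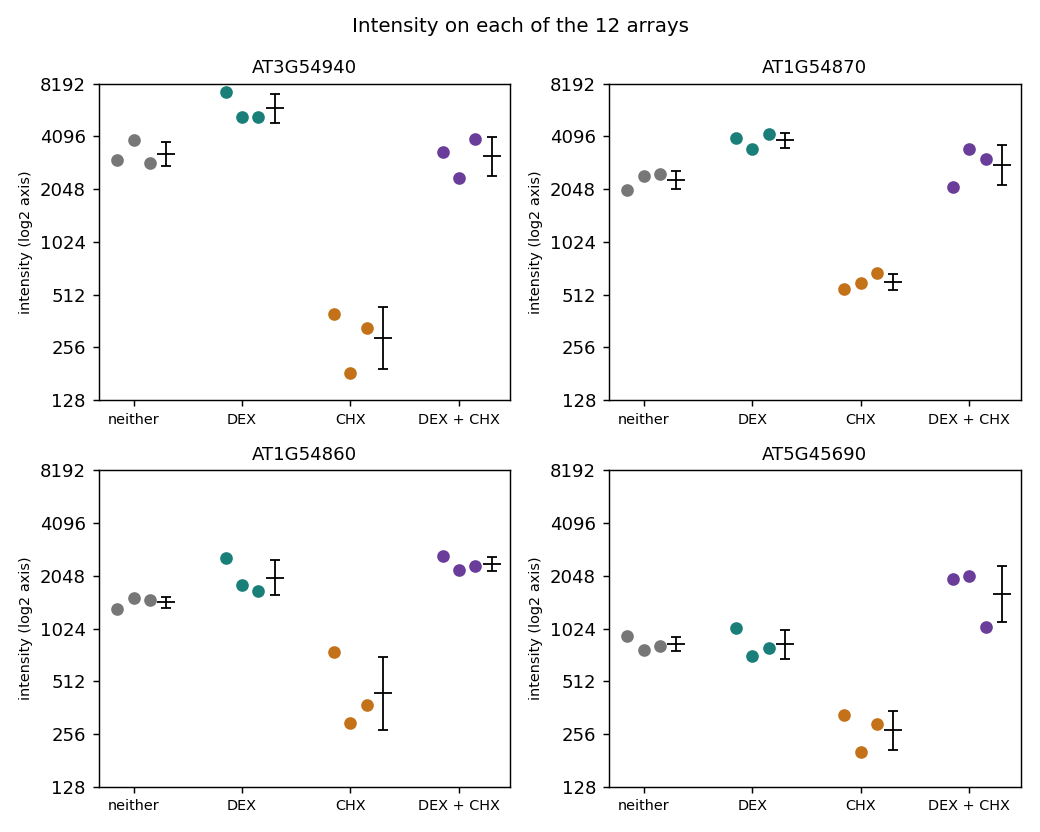
Intensity of the 4 genes on each array (log2 vertical axis), by treatment; points are single arrays, and the black bar with whiskers is the mean ± SD of the log2 values of 3 arrays. In each panel the 3 arrays with CHX alone are the lowest; those with DEX alone are highest for AT3G54940, and those with both agents are highest for AT5G45690.

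DEX without CHX is the comparison that shares no array with the one that chose the genes. None of the 4 genes passed the threshold of 0.05 in it, where 0.0132% of all probe sets were called higher (3 of 22746) and none lower. At an unadjusted p under 0.05 limma had 2 of the 4 genes, and 6.42% of all probe sets (1461). With arrays centred on their medians it had 0 of the 4, and 1335 of all probe sets. It had 3 of the 4 after quantile normalization, with only the 6 arrays compared, or without replicate 1 of CHX alone. All probe sets then numbered 1635, 1402 and 1333. AT3G54940 had a 1.82-fold higher level with DEX (log2 change 0.87, SE 0.28, 95% interval 0.26 to 1.47; limma adjusted p = 0.66). AT1G54870 had a 1.69-fold higher level (log2 change 0.76, SE 0.19, 95% interval 0.35 to 1.16; limma adjusted p = 0.507).

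Its neighbour AT1G54860 had a smaller estimate, 1.38-fold, whose interval includes 0 (log2 change 0.47, SE 0.28, 95% interval -0.14 to 1.08; limma adjusted p = 0.847). AT5G45690 had a log2 change of -0.01 (SE 0.27, 95% interval -0.59 to 0.58; limma adjusted p = 1.0). In 3 of the 4 genes the arrays with DEX lay wholly above the untreated ones, as they did for 7.17% of all probe sets. The median probe set moved by 0.10 in this comparison and by -0.10 with arrays centred on their medians. Relative to that median the changes of AT3G54940, AT1G54870, AT1G54860 and AT5G45690 were 0.77, 0.66, 0.37 and -0.11.

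With arrays centred, the changes of AT3G54940 and AT1G54870 were 0.67 and 0.56 (limma unadjusted p = 0.0851 and 0.0645). After quantile normalization they were 1.14 and 0.98. The adjusted p-values in limma over the 22 alternatives ran from 0.168 to 1.0 for AT3G54940 and from 0.138 to 0.983 for AT1G54870. Estimates for AT3G54940, AT1G54870 and AT1G54860 stayed above 0 in all 22, and that of AT5G45690 was above 0 in 4 of 22. The spread in this fit is shared with the arrays given CHX, which took part in choosing the genes. With only the 6 arrays compared, the adjusted p-values of AT3G54940 and AT1G54870 were 0.591 and 0.528 in limma.

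**Figure D2:**
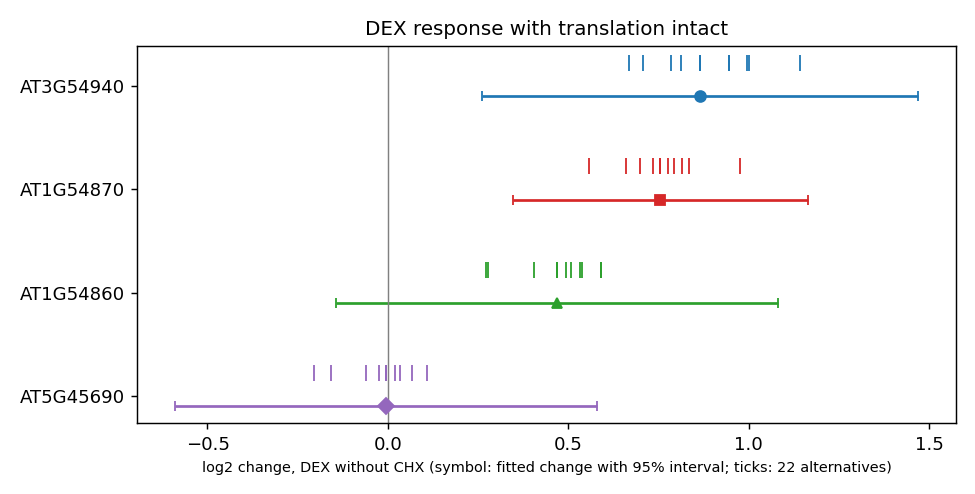
Log2 change with DEX in cells without CHX (horizontal axis) for the 4 genes; symbols with bars are the fitted change and its 95% interval, and ticks are the values under 22 alternative settings. The bars of AT3G54940 and AT1G54870 lie above 0, and those of AT1G54860 and AT5G45690 include it. These bars are those of the main fit, and no gene had an unadjusted p under 0.05 in limma with arrays centred.

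DEX with CHX is the comparison that chose the genes, so its values are only described. The level with both agents was 10.9-fold that with CHX alone for AT3G54940, 6.02-fold for AT5G45690, 5.47-fold for AT1G54860 and 4.64-fold for AT1G54870, with 0.255% of all probe sets called higher. In the fit the log2 differences were 3.45 (SE 0.28), 2.59 (SE 0.27), 2.45 (SE 0.28) and 2.21 (SE 0.19). Leaving out 1 array at a time gave 3.12 to 3.68 for AT3G54940, 2.38 to 2.90 for AT5G45690, 2.17 to 2.84 for AT1G54860 and 2.06 to 2.42 for AT1G54870. The largest difference just quoted for AT1G54860 is the one without replicate 1 of CHX alone.

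The differences between DEX with and without CHX contain the comparison that chose the genes and have no test here. On the log2 scale they were 2.58 (SE 0.39) for AT3G54940, 2.59 (SE 0.38) for AT5G45690, 1.98 (SE 0.40) for AT1G54860 and 1.46 (SE 0.27) for AT1G54870. The first 2 stood beside DEX estimates without CHX of 0.87 for the protease gene AT3G54940 and -0.01 for the DUF1264 gene AT5G45690. The genes were not compared with each other by a test.

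CHX alone was accompanied by low levels of all 4 genes. These values use the arrays with CHX alone, as does the comparison that chose the genes. A low reading there enlarges both the fall with CHX and the rise with DEX, so they too are only described. AT3G54940 stood 11.3-fold lower with CHX than untreated (log2 change -3.49, SE 0.28), and 0.536% of probe sets stood as low or lower. AT1G54870 stood 3.79-fold lower, AT1G54860 3.30-fold and AT5G45690 3.12-fold, with 5.17%, 6.83% and 7.69% of probe sets as low or lower. In each gene the 3 arrays with CHX lay wholly below the untreated ones, as they did for 24.2% of all probe sets. The root marker PYK10 fell with CHX alone as well, to 374, 405 and 347 (log2 change -4.75, SE 0.18; limma adjusted p = 2.51e-09), while EXPA7 read 4.0, 33.1 and 36.6 there. The part of root cell markers, or of the lower ubiquitin and GAPDH ratios with CHX alone, in the values of the 4 genes was not tested. In bulk RNA, fewer cells of a type and less RNA per cell cannot be told apart.

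Set against untreated cells, those with both agents differed by gene. AT3G54940 was at 0.968 times its untreated level (log2 difference -0.05, SE 0.28) and AT1G54870 at 1.22 times (0.29, SE 0.19), with overlapping arrays. AT1G54860 was at 1.66 times (0.73, SE 0.28) and AT5G45690 at 1.93 times (0.95, SE 0.27), and in these the arrays did not overlap, as held for 14.0% of probe sets in that direction. The sign for AT3G54940 was above 0 in 4 of 22 alternatives, where it ran from -0.26 to 0.24. These values share the arrays with both agents with the choice of the genes.

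Compared with DEX alone, arrays with both agents lay wholly higher in AT5G45690 (log2 difference 0.95, SE 0.27), as in 13.4% of probe sets. They lay wholly lower in AT3G54940 (-0.91, SE 0.28), as in 27.7% of probe sets, and overlapped in AT1G54860 and, by a near-tie, in AT1G54870. The median probe set moved by -0.46 in this comparison. Relative to that median the differences were -0.45 for AT3G54940, 0.001 for AT1G54870, 0.72 for AT1G54860 and 1.42 for AT5G45690.

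The order of the 4 group means was as follows, and no difference in order between genes was tested. For AT3G54940 the order was DEX alone, then untreated cells and cells with both, whose arrays overlap, then CHX alone. For AT1G54870, DEX alone led, cells with both overlapped untreated cells and, only by a near-tie, DEX alone, and CHX alone was last. For AT1G54860, cells with both and with DEX alone overlapped at the top, followed by untreated cells and then CHX alone. For AT5G45690, cells with both came first, DEX alone and untreated overlapped, and CHX alone was last. Levels with CHX alone below both the untreated cells and the cells with both agents, with no overlap, were seen in 377 probe sets, 1.66% of all. All 4 genes are among them, as their choice favours.

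**Figure D3:**
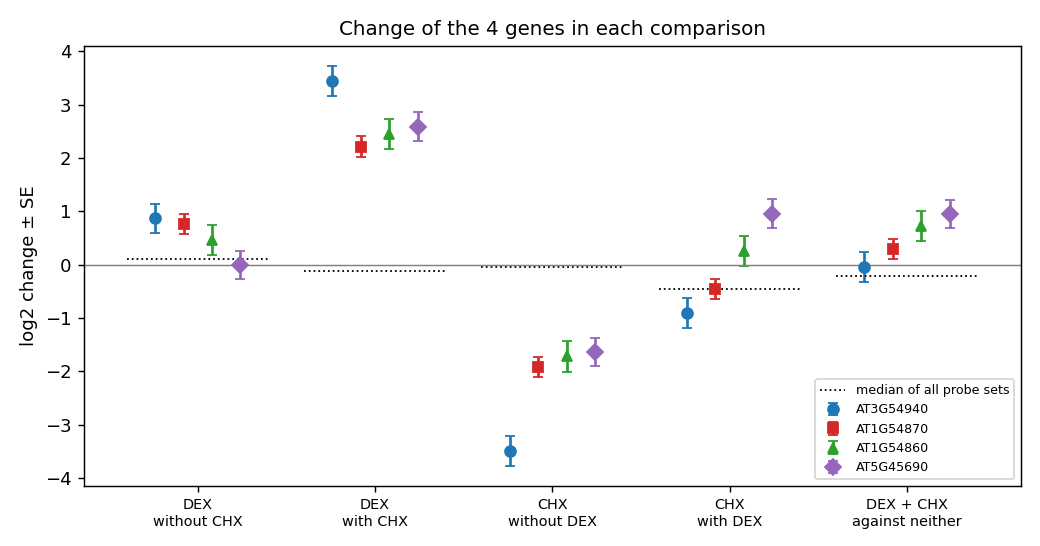
Log2 change ± SE (vertical axis) of the 4 genes in 5 comparisons; symbols mark genes and the dotted line is the median of all probe sets. With CHX the DEX differences lie between 2.21 and 3.45; comparing CHX with no CHX in cells given DEX, values run from -0.91 for AT3G54940 to 0.95 for AT5G45690.

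Relatives of the genes were then taken from lists of the same families. Among short-chain dehydrogenase genes, 28 of 44 listed loci were measured besides AT1G54870. With DEX in the presence of CHX, 1 of the 28 rose and none fell, against 0.255% of all probe sets called higher and 0.0176% lower. Their median log2 change was 0.07, and that of all probe sets -0.12. The gene that rose was AT3G05260, which encodes the other Arabidopsis homolog of glucose and ribitol dehydrogenases.

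AT3G05260 read 205, 264 and 223 untreated, 251, 159 and 179 with DEX alone, 148, 71.9 and 215 with CHX alone, and 568, 439 and 780 with both. The 3 arrays with both agents exceed all 9 others, and the other groups overlap. Of all probe sets, 14.0% had both agents wholly above untreated cells and 13.4% had them wholly above DEX alone. DEX with CHX raised it 4.40-fold (log2 change 2.14, SE 0.39; limma adjusted p = 0.0465). That call was lost in 15 of 22 alternatives, over which the adjusted p ran from 0.0192 to 0.343 and the change from 1.70 to 2.49. The call was lost without replicate 1 or 2 of CHX alone, replicate 1 or 3 of both agents, or any of the 6 arrays without CHX.

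Against untreated cells it rose 2.53-fold with both agents (log2 change 1.34, SE 0.39; limma adjusted p = 0.019), a call lost without replicate 1 or 3 of untreated cells or replicate 3 of both agents. In that comparison 10.8% of probe sets were called higher and 19.1% lower, and with arrays centred 2901 were higher and 2808 lower. AT3G05260 missed the threshold with CHX alone (log2 change -0.80, SE 0.39; limma adjusted p = 0.172), where AT1G54870 stood 3.79-fold lower. The difference between the pair was not tested.

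With CHX alone, 3 of the 28 dehydrogenase genes rose and 5 fell, against 10.9% of probe sets called higher and 16.1% lower. The tropinone reductase gene TRI rose by 3.75 (SE 0.33) and AT2G29340 by 3.11 (SE 0.45) in log2. AT3G26770 had a log2 change of -3.35 (SE 0.37) and AT1G24360 one of -2.51 (SE 0.26), both past the threshold.

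The DUF1264 list had 2 of 4 loci measured besides AT5G45690, and they moved in opposite directions with CHX alone. AT4G18920 read 85.7, 18.8 and 61.1 untreated and 106, 123 and 145 with DEX alone. It read 525, 667 and 369 with CHX alone and 1030, 968 and 1518 with both. No group overlaps another in this gene, and each treated group lies above the untreated one. Of all probe sets, 7.17% had DEX alone wholly above untreated cells and 14.0% had both agents wholly above them. CHX alone raised it 10.9-fold (log2 change 3.45, SE 0.48; limma adjusted p = 9.73e-05), where AT5G45690 stood 3.12-fold lower.

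Both agents together raised AT4G18920 24.8-fold over untreated cells (log2 change 4.63, SE 0.48; limma adjusted p = 6.81e-06). These 2 calls held in all 22 alternatives, while the size of the folds leans on an untreated array of 18.8, near the floor of 16. Its DEX changes were 1.42 without CHX (SE 0.48; limma adjusted p = 0.676) and 1.18 with it (SE 0.48; limma adjusted p = 0.575), and neither passed. AT1G29680 fell with CHX alone (log2 change -1.17, SE 0.37; limma adjusted p = 0.0298), a call lost in 7 of 22 alternatives, among them those without replicate 2 or 3 of untreated cells or of CHX alone.

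Of the papain-type protease genes related to AT3G54940, 18 of 31 loci were measured. None passed with DEX in limma, with or without CHX, and 2 and 3 respectively had an unadjusted p under 0.05, as did 7.83% and 6.42% of all probe sets. Under CHX their changes with DEX ran from -1.50 to 0.58, with 2 of 18 above 0 and a median of -0.47, against -0.12 for all probe sets. With CHX alone 5 of the 18 fell and none rose, against 16.1% of all probe sets called lower and 10.9% higher.

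The cathepsin B-type gene AT4G01610 fell furthest, from 16906, 16824 and 16873 untreated to 1212, 1073 and 774 with CHX alone, and it read 409, 647 and 712 with both. Its arrays with both agents thus lie below those with CHX alone, but that change with DEX did not pass (log2 change -0.81, SE 0.23; limma adjusted p = 0.326). The fitted change with CHX was -4.07 (SE 0.23; limma adjusted p = 4.56e-08). AT2G34080, AT1G02305, another cathepsin B-type gene, and AT3G19390 also had changes past the threshold with CHX, of -2.59 (SE 0.66), -2.14 (SE 0.15) and -0.80 (SE 0.18). The call of AT2G34080 was lost without replicate 2 of CHX alone and that of AT3G19390 with arrays centred. AT4G16190, named after its values were seen, was the fifth, at -0.73 (SE 0.24; limma adjusted p = 0.0352), a call lost in 10 of 22 alternatives.

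**Figure D4:**
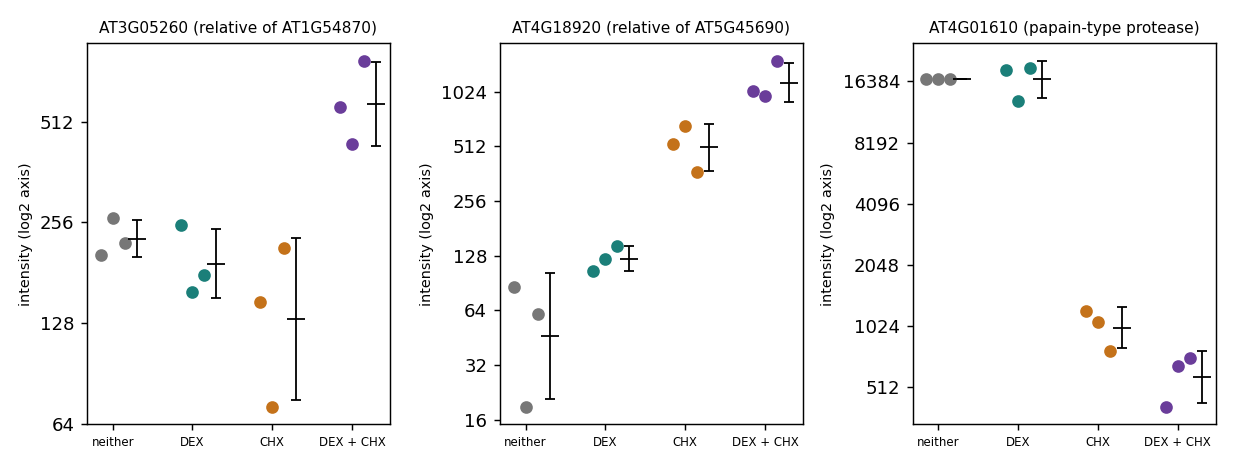
Intensity on each array (log2 vertical axis) of a relative of AT1G54870, a relative of AT5G45690 and a papain-type protease gene; points are single arrays, and bars with whiskers are the mean ± SD of log2 values of 3 arrays. Cells with both agents are highest for AT3G05260 and AT4G18920 and lowest for AT4G01610.

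Vacuolar processing enzymes, which cut storage proteins in seeds and act in vacuoles elsewhere, were all measured (4 of 4 loci). None passed with DEX in limma, and at an unadjusted p under 0.05 there were 2 with CHX and 0 without, where all probe sets had 7.83% and 6.42%. With CHX alone 3 of 4 fell, against 16.1% of probe sets called lower, with log2 changes of -2.19 (SE 0.52) for ALPHA-VPE, -2.06 (SE 0.25) for BETA-VPE and -1.34 (SE 0.17) for GAMMA-VPE. BETA-VPE, the seed-type enzyme, had a log2 change of 0.89 with DEX under CHX (SE 0.25; limma adjusted p = 0.312), and ALPHA-VPE one of -1.64 (SE 0.52; limma adjusted p = 0.415). The value for ALPHA-VPE leans on 1 array below the floor, since it read 6.4, 87.2 and 70.1 with both agents. Only 2 of 18 seed regulator loci had a named probe set. BZIP53, a bZIP factor that activates seed maturation genes, rose with CHX alone by 0.69 (SE 0.18; limma adjusted p = 0.0118), a call lost with arrays centred (0.82) and after quantile normalization (0.17). EEL, a bZIP factor of late embryos, had 0.24 with CHX alone and -0.13 with DEX under CHX.

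Genes up to 2 places from each of the 4 in the gene table were examined next. Beside the pair AT1G54860 and AT1G54870, AT1G54850 on one side and AT1G54890 on the other were measured. AT1G54890 read 955, 591 and 739 untreated, 464, 639 and 773 with DEX alone, 56.7, 109 and 114 with CHX alone, and 170, 208 and 84.6 with both. It fell with CHX alone (log2 change -3.07, SE 0.39; limma adjusted p = 4.71e-05), and arrays with CHX and with both agents overlap. Its change with DEX under CHX was 0.70 (SE 0.39; limma adjusted p = 0.705), and that of AT1G54850 was -0.76 (SE 0.44; limma adjusted p = 0.719).

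AT3G54930, beside AT3G54940, had a change of 0.58 with DEX under CHX (SE 0.87; limma adjusted p = 0.91). AT5G45670 and AT5G45700, near AT5G45690, had -0.85 (SE 0.81) and -1.24 (SE 0.68) in that comparison. None of these 5 neighbours passed in a DEX comparison in limma or had an unadjusted p under 0.05, but the wide errors of the dim ones leave room for sizeable changes. AT5G45700 read 2.2 on 1 untreated array, below the floor.

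The genes of most similar profile were found by the root mean square difference of log2 values over the 12 arrays, each gene centred on its own mean. This measure includes the arrays that chose the genes and has no test. Among 9263 candidates, AT3G54940 was closest to AT4G36600 (0.41) and LEA18 (0.58), both LEA genes. AT1G54870 was closest to AT3G53040 (0.30), a LEA gene, to the dehydrin gene AT2G21490 (0.46) and to the cupin gene AT2G18540 (0.49). The median difference to all candidates was 1.79 for AT3G54940 and 1.18 for AT1G54870.

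AT1G54860 lay nearest to AtLEA4-1 (0.29), AT3G51750 (0.36) and the oleosin gene AT2G25890 (0.39), with a median of 1.21 to all. AT5G45690 lay nearest to AT3G03170 (0.44), AT1G27461 (0.45) and the seed maturation protein gene AT3G22490 (0.45), with a median of 1.20. Among the 4 genes, AT1G54860 and AT5G45690 differed least (0.40) and AT3G54940 and AT5G45690 most (1.10). The neighbours AT1G54860 and AT1G54870 differed by 0.49, with 3 candidates closer to AT1G54870.

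**Figure D5:**
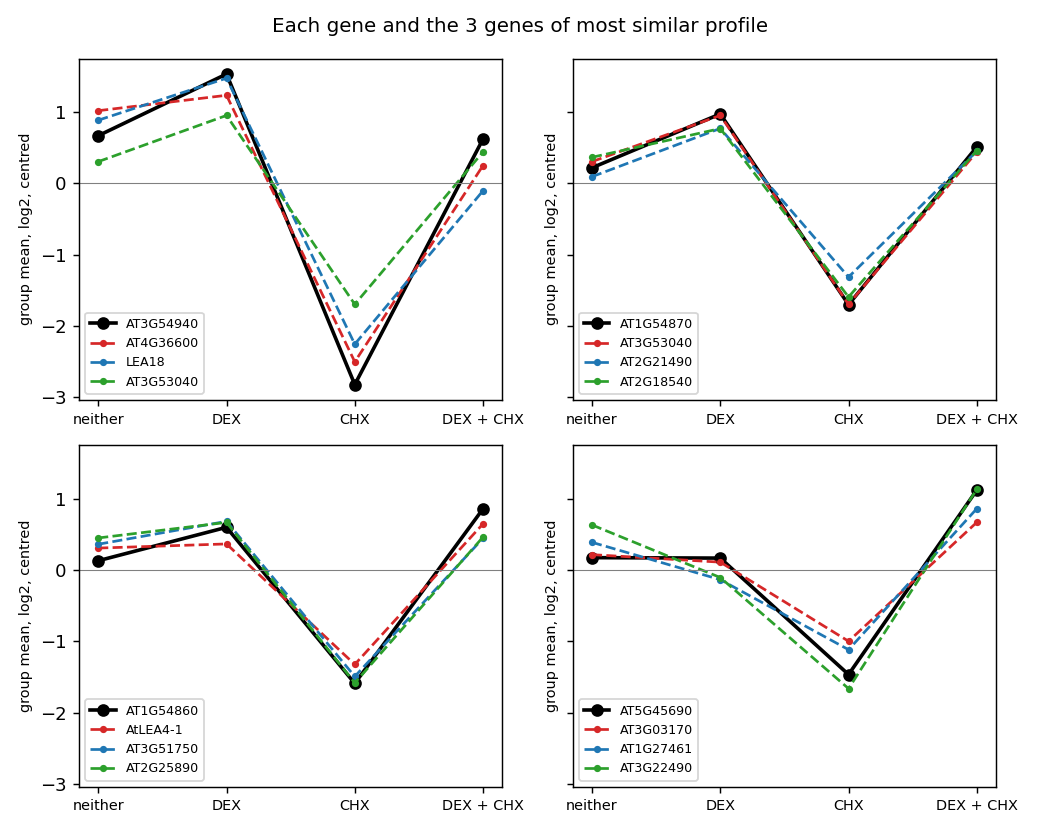
Group means in log2, centred on the mean of the 4 groups (vertical axis), of each gene (black) and of the 3 genes of most similar profile (dashed). All lines are lowest with CHX alone, and the likeness of the dashed lines to each gene follows from how they were chosen.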

How the data were processed

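Total RNA, labelled with biotin, was hybridised to 12 Affymetrix arrays, per the labels. The authors deposited 1 linear intensity per probe set and array. Every array has a mean of 500 once 2% is trimmed from each end, so the arrays had been scaled; the sources used here do not name the software. Here values under 16 were set to 16 before log2, without the 64 control probe sets. The platform annotation gives 13513 of the remaining 22746 a single gene, 503 several and 8730 none; 13436 matched the TAIR10.1 table by Entrez ID. Of several probe sets per gene, that of highest mean was used.

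The 4 group means were fitted to all 12 arrays with limma 3.58.1 in R 4.3.3 (lmFit, eBayes with a variance trend). Adjusted p-values are Benjamini-Hochberg over all probe sets, called under 0.05. The fit was run on simulated data with independent noise and no array-wide differences, which does not give its error rate on these arrays. The 4 genes and all lists were chosen with earlier results of these data known. Named genes are these 4; per list and comparison, up to 4 members past the threshold or else the 2 of highest mean; the 3 of most similar profile (mean log2 of 6 or more); and measured genes up to 2 places away. Alternatives were scaling, floor, pseudocount, filter, fit, block and each array left out. Python 3.11.15 prepared tables and figures.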

Additional observations from a re-analysis of the deposited data

Results flagged for a closer look

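AT5G45690 stood lower with CHX than without it in cells without DEX and higher in cells with DEX, with no overlap of arrays either time. The 2 CHX effects differed by 2.59 on the log2 scale. This contains the comparison that chose the gene, and the difference was not tested. AT3G26770, a short-chain dehydrogenase gene, had lower arrays with DEX alone than untreated and higher arrays with both agents than with CHX alone. Its 2 DEX effects differed by 1.93 on the log2 scale, and the interaction missed the threshold (limma adjusted p = 0.358). BZIP53 did the same by 0.55 (limma adjusted p = 0.624). No single DEX effect of either gene passed in limma. Those of BZIP53 were -0.19 without CHX and 0.36 with it, the latter 0.10 after quantile normalization. Its margins were thin, at 13880 against 14060 without CHX and 24030 against 23446 with it. The share of all probe sets with such opposite DEX effects was not counted.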

How the results depend on the processing

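None of the 4 genes was called for DEX without CHX in any of 22 alternatives. The count of all probe sets called there was 3, and it became 5 after quantile normalization (4 higher and 1 lower), 1 with arrays centred, 21 with a floor of 64 (14 higher and 7 lower), 0 without the variance trend, 5 unmoderated and 1 with only the 6 arrays compared. Without 1 array it ran from 0 to 3, at 0 without replicate 1 or 2 of untreated cells or replicate 1 or 3 of DEX alone and at 1 without replicate 2 of DEX alone. For DEX with CHX the count was 62, and it became 28 without the trend, 30 unmoderated and 0 with only the 6 arrays compared (1608 at an unadjusted p under 0.05). Without 1 array it ran from 21 to 112: leaving out CHX replicate 2 gave 21, CHX replicate 3 gave 28, replicate 1 or 3 of both agents gave 30, and replicate 2 of both gave 112. Total counts for CHX alone and for both agents stayed within 1.5 times, though with arrays centred the split for both agents went from 2459 higher and 4352 lower to 2901 and 2808. All 4 genes kept their direction for DEX with CHX and for CHX alone in all 22, and AT1G54860 with both agents against untreated moved to 1.02 with arrays centred. Same-numbered arrays did not deviate together (correlations of -0.44 to 0.29, with 4 of 18 over 0.1), and the main fit did not pair them. Array-wide differences enter these correlations and can mask pairing, so shared preparations are not excluded. With the replicate number as a block, DEX called 2 probe sets without CHX and 45 with it, CHX alone called 5786 and both agents 6378, and AT3G05260 lost its call with DEX under CHX. The number of arrays limits precision throughout.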
